A study of Homo sapiens with 6 samples.

Results

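The 10 genes described here form the insulin-like growth factor (IGF) axis: the ligand gene IGF1, the receptor genes IGF1R, INSR and IGF2R, the receptor substrates IRS1 and IRS2, and the binding proteins IGFBP2, IGFBP3, IGFBP4 and IGFBP5. They were taken by symbol from a list that was chosen with earlier results of these data known. All 10 were among the 55765 gene symbols counted. The question was how they respond to a supraphysiological androgen level (SAL) in C4-2 cells, a castration-resistant subline of the prostate cancer line LNCaP. Cells of both groups grew in DMEM with fetal bovine serum. They received the solvent DMSO as control or 1 nM R1881, a synthetic androgen, for 72 h. There were 3 RNA-seq libraries per group, numbered 1 to 3 in each, and libraries with the same number were compared as pairs. All values come from this 1 cell line, so the groups model no other prostate cells.

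IGF1 and IGF2 are secreted growth factors that bind IGF1R, a receptor tyrosine kinase of the cell surface. INSR, its closest relative, binds insulin and, in one splice form, also IGF2. The activated receptors phosphorylate the docking proteins IRS1 and IRS2, which recruit PI3-kinase and so activate AKT, a route to growth and survival that is much studied in prostate cancer. IGF2R has no kinase. It removes IGF2 from the cell surface and carries enzymes tagged with mannose 6-phosphate to lysosomes. The IGFBPs bind IGFs outside the cell and control how much ligand reaches the receptors, and proteases that cleave them release the ligand.

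The upstream sequences of the 3 receptor genes are shown because 2 of these genes rose together while the third, the nearest relative of IGF1R, passed the test in neither direction. Each is the run of 250 bases before the RefSeq gene start, on the gene's own strand, in GRCh38.p14, a newer build than the hg19 of the counts. The coordinates are chr15:98648289-98648538 (plus strand) for IGF1R, chr6:159968832-159969081 (plus strand) for IGF2R and chr19:7294415-7294664 (minus strand) for INSR. Capitals mark the GC box GGGCGG or its reverse complement.
IGF1R: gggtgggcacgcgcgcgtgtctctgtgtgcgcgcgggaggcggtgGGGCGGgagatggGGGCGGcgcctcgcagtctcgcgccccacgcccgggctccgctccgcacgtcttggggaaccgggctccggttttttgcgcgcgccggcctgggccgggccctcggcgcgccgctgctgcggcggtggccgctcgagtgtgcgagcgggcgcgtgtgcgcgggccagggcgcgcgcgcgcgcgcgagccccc
IGF2R: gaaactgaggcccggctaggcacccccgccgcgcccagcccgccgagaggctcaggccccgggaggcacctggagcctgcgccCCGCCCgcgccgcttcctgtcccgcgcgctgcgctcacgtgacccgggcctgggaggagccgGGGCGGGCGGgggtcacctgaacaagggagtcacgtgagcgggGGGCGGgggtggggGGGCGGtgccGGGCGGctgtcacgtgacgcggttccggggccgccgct
INSR: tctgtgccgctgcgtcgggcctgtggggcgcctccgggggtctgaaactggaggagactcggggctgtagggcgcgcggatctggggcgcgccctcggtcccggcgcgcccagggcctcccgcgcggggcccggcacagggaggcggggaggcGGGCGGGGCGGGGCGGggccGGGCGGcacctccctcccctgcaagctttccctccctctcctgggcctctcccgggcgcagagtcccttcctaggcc
G and C made up 81.2% of the IGF1R run, 79.2% of the IGF2R run and 78.4% of the INSR run, against a median of 58.0% over the 35116 promoters of the RefSeq table. The runs held 2, 6 and 4 GC boxes, some of them overlapping, and 42.6% of all promoters held at least 1 on either strand. The E-box CACGTG, not marked above, occurred 3 times in the IGF2R run and not in the IGF1R or INSR run. It was in 6.34% of all promoters, and its relation to the changes was not tested. The TATA box TATAAA and the FOXO site TGTTTAC were also searched and were in none of these runs. The hexamer AGAACA, the unit of an androgen response element, was in none of these 3 runs on either strand and was in 12.4% of all promoters. Of the 10 genes, only IGFBP2 had a promoter run with this hexamer. The full palindromic element, a pair of such hexamers facing each other, was in 1 of the 35116 promoters and in none of the 10 genes. These letters were searched only within 250 bases of annotated starts, so nothing follows about binding elsewhere.

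The libraries held 6931042 to 9776990 counts each after removal of rRNA genes. All 7 markers used of luminal prostate epithelium were above 3 counts, with a summed level of 2204 to 3700.4 CPM in DMSO and 4190.4 to 8382 in SAL. CPM is the count relative to the TMM-scaled library size (counts per 1e+06). KLK3, the known androgen-induced gene for prostate-specific antigen, had 587 to 1200.4 CPM in DMSO and 1411 to 2535 in SAL. Replicate 1 stood apart in both groups, with the lowest levels of all 3 receptor genes and of both substrate genes. The values below are therefore read within pairs.

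IGF1R and IGF2R rose under SAL, and no other gene of the 10 passed the test in either direction. In the paired edgeR fit, 9 of the 10 had enough counts to be tested, and a Benjamini-Hochberg adjusted p under 0.05 made a call. The 2 calls among 9 stand beside 11.5% of all 16835 genes tested that were called higher. None of the 9 was called lower, against 9.37% of all genes. At an unadjusted p under 0.05 there was 1 lower gene, IGFBP5, in edgeR, and DESeq2 with the pairing also called none lower and had 1 at that p, IGFBP2 (-0.46 on the log2 scale, SE 0.20, unadjusted p = 0.0189). The plot of levels shows each of the 10 genes in each pair.

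**Figure D1:**
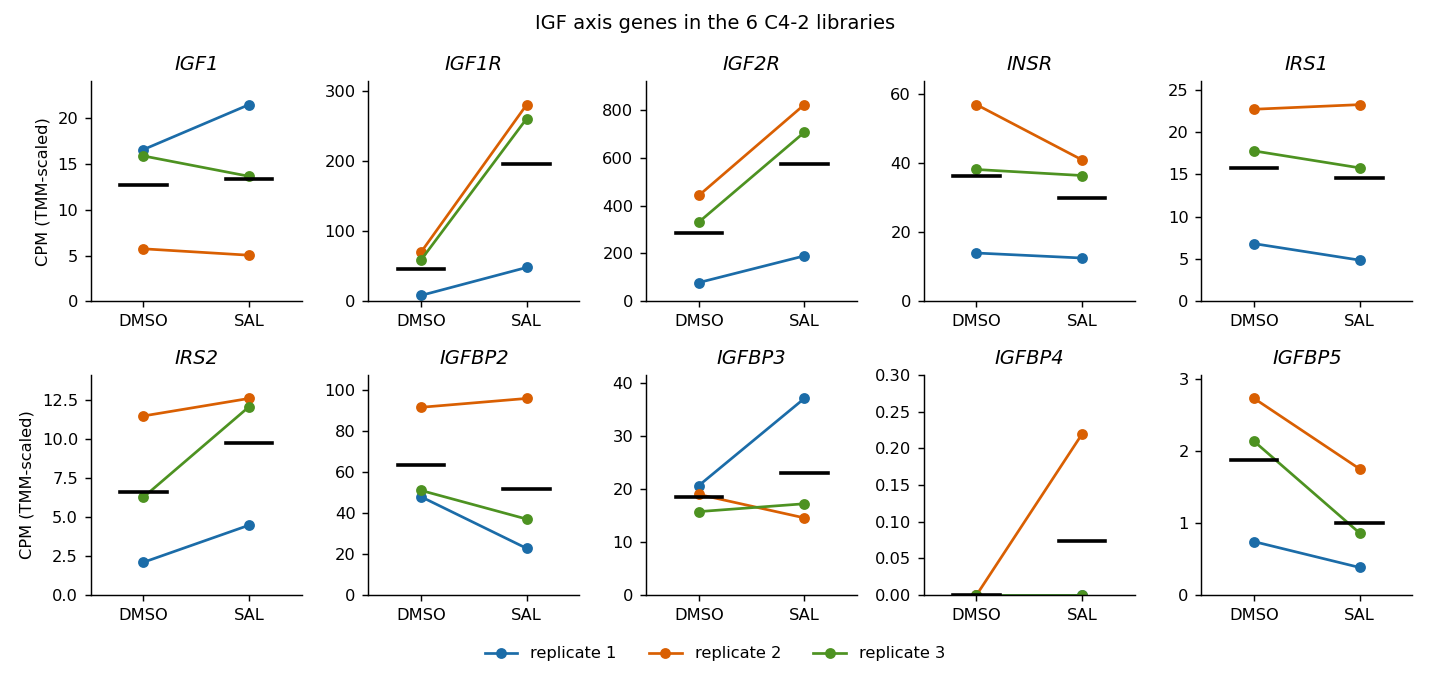
CPM (TMM-scaled, linear axes from 0, a different scale in each panel) of the 10 IGF axis genes in DMSO and SAL; points joined by a line are libraries of the same replicate number and black bars are group means. IGF1R and IGF2R climb in all 3 pairs, while replicate 1 lies lowest in both groups for the receptor and substrate genes.

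IGF1R (chromosome 15, 99191768 to 99507759, plus strand, GRCh37) showed the largest change of the 10. The counts of replicates 1, 2 and 3 were 68, 514 and 443 in DMSO against 377, 2557 and 2114 in SAL. As levels these were 8.42, 70.3 and 59.2 CPM in DMSO and 48.3, 280.4 and 260.5 CPM in SAL. Every SAL library was above the DMSO library of its number, but the groups overlapped, since SAL replicate 1 lay below DMSO replicates 2 and 3. On average the level went from 46.0 ± 33.0 to 196 ± 129 CPM (SD, n = 3). The fitted log2 fold change was 2.17, or 4.50-fold (standard error, SE, 0.11, adjusted p = 3.25e-09 by paired edgeR). The 3 pairs gave 2.48, 1.99 and 2.13, so the pairs differed far less in their change than in their level. IGF1R ranked 36th of 16835 genes by p and 129th by log2 fold change. Without replicate 1 the log2 fold change was 2.07, and the range over all alternative settings was 2.07 to 2.25. The call was lost only when the libraries were not paired (edgeR without the block gave an adjusted p = 1.00 at a log2 fold change of 2.095).

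IGF2R (chromosome 6, 160390114 to 160534539, plus strand), the scavenger of IGF2 and carrier of lysosomal enzymes, had the most counts of the 10 genes in each library. Replicates 1, 2 and 3 gave 632, 3234 and 2477 counts in DMSO and 1482, 7494 and 5731 in SAL. The levels were 78.3, 442 and 331 CPM in DMSO and 189.8, 822 and 706 CPM in SAL. All 3 pairs rose, and here too the groups overlapped because of replicate 1. The log2 fold change was 1.08, or 2.12-fold (SE 0.10, adjusted p = 1.31e-06 by paired edgeR), with 1.27, 0.89 and 1.09 in the pairs. The interval of 0.87 to 1.29 (95%) lies wholly below that of IGF1R, 1.93 to 2.41. Over the alternative settings the value stayed between 0.99 and 1.16, and without the pairing it was 1.01 (adjusted p = 1.00).

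INSR (chromosome 19, 7112266 to 7294425, minus strand) did not follow the other receptor genes. It had 113, 417 and 286 counts in DMSO and 98, 374 and 296 in SAL, which is 36.4 ± 21.6 and 30.0 ± 15.3 CPM (SD, n = 3). Each SAL library was slightly below its pair, by 0.15, 0.47 and 0.07 on the log2 scale. The fitted log2 fold change of -0.25 (SE 0.13) did not pass the test (adjusted p = 0.190 by paired edgeR). Its 95% interval of -0.52 to 0.02 holds neither the rise of IGF1R nor that of IGF2R.

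**Figure D2:**
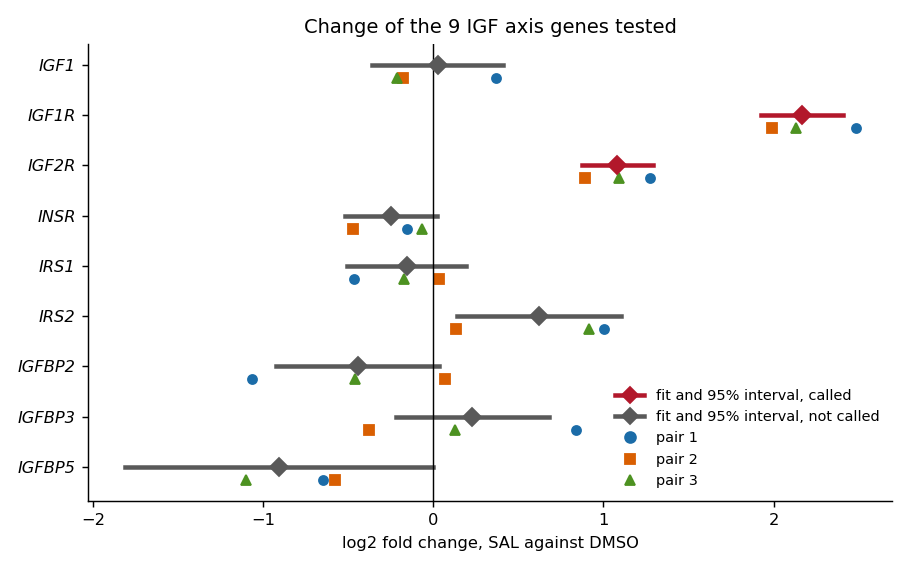
Fitted log2 fold change of SAL against DMSO (diamonds) with its 95% interval (bars) for the 9 IGF axis genes tested, red where the adjusted p was under 0.05 and grey otherwise, with the change of each of the 3 pairs below it. IGF1R at 2.17 and IGF2R at 1.08 stand apart from 0 in all pairs, and the pairs of IGF1, IRS1, IGFBP2 and IGFBP3 lie on both sides of 0.

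The balance between the receptor transcripts differed between the DMSO and SAL library of each pair, which restates the changes above. Divided by transcript length, IGF1R was at 0.465, 0.953 and 1.20 times the level of INSR in DMSO replicates 1, 2 and 3, and at 2.98, 5.29 and 5.52 times that level in SAL. The lowest SAL ratio was thus above the highest DMSO ratio, although the levels themselves overlapped. The ratio of IGF2R to IGF1R went the other way, from 8.09, 5.47 and 4.87 in DMSO to 3.42, 2.55 and 2.36 in SAL. IGF2R remained the more abundant transcript of that pair in all 6 libraries. These ratios are descriptions and were not tested.

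**Figure D3:**
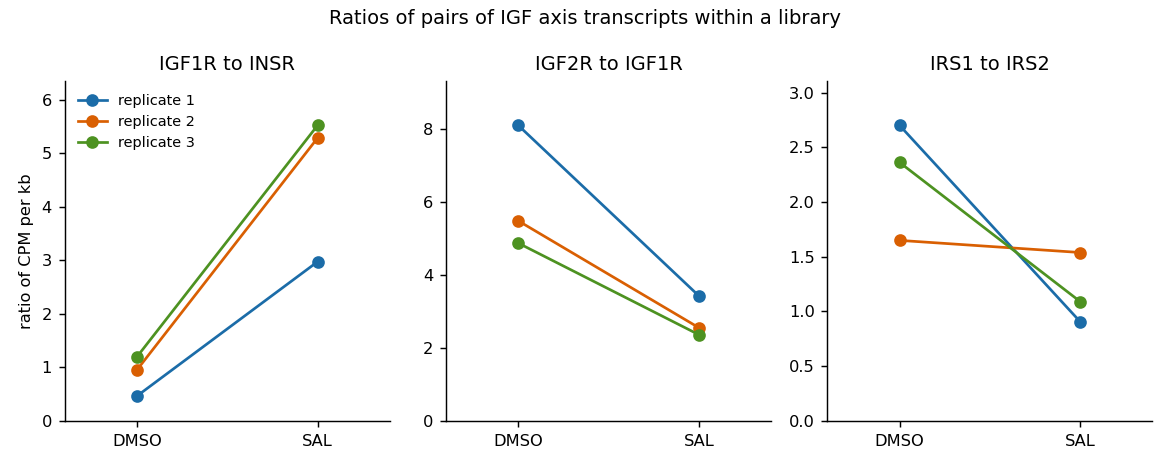
Ratios of the level per kb of transcript of 2 IGF axis genes within a library (linear axes from 0), with lines joining libraries of the same replicate number. The IGF1R to INSR ratio is 0.465 to 1.20 in DMSO and 2.98 to 5.52 in SAL, and the IGF2R to IGF1R ratio is lower in SAL in each pair.

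Neither substrate gene passed the test, and IRS2 was the closer of them to the threshold. IRS1 (chromosome 2, 227596028 to 227664536) had 6.81, 22.7 and 17.8 CPM in DMSO and 4.87, 23.2 and 15.8 CPM in SAL. Its log2 fold change was -0.16 (SE 0.16, 95% interval -0.51 to 0.19, adjusted p = 0.556 by paired edgeR). IRS2 (chromosome 13, 110405042 to 110438930) had 17, 84 and 47 counts in DMSO and 35, 115 and 98 in SAL. This was 2.11, 11.5 and 6.28 CPM against 4.48, 12.6 and 12.1 CPM, higher in SAL in each pair. The pairs differed widely, with log2 changes of 1.01, 0.13 and 0.92. The fitted log2 fold change was 0.62 (SE 0.23, 95% interval 0.14 to 1.10), and the adjusted p of 0.0641 (paired edgeR) missed the threshold. IRS2 was called without replicate 2, where it reached 0.98 on the log2 scale (adjusted p = 0.0237), and in the fit with no filter on low counts (adjusted p = 0.0314). It was farther from the threshold with DESeq2 (adjusted p = 0.219) and without replicate 3, where it was 0.47 (adjusted p = 0.472). The ratio of IRS1 to IRS2 per length was 1.65 to 2.70 in DMSO and 0.906 to 1.54 in SAL.

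The ligand gene IGF1 (chromosome 12, 102789652 to 102875522, minus strand) was counted at a moderate level, and its difference between the groups was near 0. It had 134, 42 and 119 counts in DMSO and 168, 46 and 111 in SAL, or 16.6, 5.74 and 15.9 CPM against 21.5, 5.04 and 13.7 CPM. The log2 fold change was 0.03 (SE 0.18, 95% interval -0.36 to 0.41, adjusted p = 0.941 by paired edgeR), and the pairs gave 0.37, -0.18 and -0.21. IGF1 was lowest in replicate 2 of both groups, the reverse of the order seen for the receptors. Replicate 2 also had the fewest reads outside genes, 32.6% of the uniquely mapped reads in DMSO and 26.7% in SAL, against 41.7% to 51.1% in the other libraries. The part of such reads in the IGF1 counts was not tested. The counting took no account of strand, and 82.5% of the exon bases of IGF1 in the newer GENCODE annotation (6693 of 8115) are overlapped by exons of HELLPAR, a long non-coding RNA of the other strand. Reads of the 2 genes cannot be told apart in these counts. Fibroblasts are a usual source of IGF1, but these libraries come from 1 cultured cell line. The 7 fibroblast markers summed to 3.35 to 12.4 CPM in DMSO and 2.56 to 10.7 in SAL. Most of the highest sums, in replicate 2, was COL1A1, with 10.3 CPM in DMSO and 9.65 in SAL. Of the 7, 3 were at or under 3 counts in all libraries, with COL1A2 at 0. The relation of these markers to the IGF1 counts was not tested.

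None of the binding protein genes passed the test. IGFBP2 (chromosome 2, 217497551 to 217529159), a secreted carrier whose gene is often active in prostate cancer cells, had 47.9, 91.6 and 51.0 CPM in DMSO and 22.8, 95.9 and 37.1 CPM in SAL. It was lower in SAL in pairs 1 and 3, by 1.06 and 0.46 on the log2 scale, and 0.07 higher in pair 2. The log2 fold change was -0.44 (SE 0.20, 95% interval -0.92 to 0.04, adjusted p = 0.185 by paired edgeR). Without replicate 2 it reached -0.77 and passed the threshold (adjusted p = 0.00530). Without replicate 1 it shrank to -0.16 (adjusted p = 0.321). It was also called when no filter was used (adjusted p = 0.00195).

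IGFBP3 (chromosome 7, 45951844 to 45961473), the main carrier of IGFs in the circulation, had 20.7, 19.01 and 15.8 CPM in DMSO and 37.1, 14.6 and 17.2 CPM in SAL. Only SAL replicate 1 stood above the DMSO libraries, and the pairs gave 0.84, -0.38 and 0.13 on the log2 scale. The fitted value of 0.23 (SE 0.20, 95% interval -0.22 to 0.68, adjusted p = 0.486 by paired edgeR) turned to -0.13 without replicate 1.

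IGFBP5 (chromosome 2, 217536828 to 217560272) and IGFBP4 (chromosome 17, 38599702 to 38613977), carriers that are typical of stromal and bone cells, were near or below detection. IGFBP5 had 6, 20 and 16 counts in DMSO and 3, 16 and 7 in SAL, lower in SAL in each pair. Its log2 fold change of -0.91 had an SE of 0.42 and did not pass the test (adjusted p = 0.153 by paired edgeR). IGFBP4 had no count in 5 libraries and 2 counts in SAL replicate 2, so no fold is given. A count of 0 allows up to 3 counts, or 0.370 to 0.410 CPM in the 5 libraries without a count, counting error only.

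Per length, the order of the mean levels in DMSO was led by IGFBP2 and IGF2R. Replicate 1 departed from this order. In DMSO replicate 1, IGFBP3 at 7.92 CPM per kb was above IGF2R at 5.57. There IGF1 at 2.28 CPM per kb was also above INSR at 1.48 and IGF1R at 0.689. In DMSO, IGFBP2 stood at 44.9 ± 17.2 CPM per kb, IGF2R at 20.2 ± 13.3 and IGFBP3 at 7.08 ± 0.958 (mean ± SD, n = 3). INSR at 3.85 ± 2.28 and IGF1R at 3.76 ± 2.70 came next and did not differ beyond their spread, as was true of IGF1 at 1.75 ± 0.835 and IRS1 at 1.61 ± 0.832. IRS2 at 0.812 ± 0.576 and IGFBP5 at 0.300 ± 0.164 were lowest of those detected. In SAL, IGF2R at 40.7 ± 23.9 CPM per kb and IGFBP2 at 36.7 ± 27.4 led and overlapped. By the means, IGF1R at 16.0 ± 10.5 CPM per kb was the third in SAL, followed by IGFBP3 at 8.80 ± 4.72 and INSR at 3.17 ± 1.62. The ranges of IGF1R and IGFBP3 overlapped, and in SAL replicate 1 their order was the reverse, with IGF1R at 3.95 and IGFBP3 at 14.2 CPM per kb. In that library IGFBP3 was also above IGF2R, which was at 13.5 CPM per kb. The lengths are those of the canonical transcripts of GENCODE v44. With all annotated exons merged instead, the DMSO means became 13.4 for IGFBP2, 12.6 for IGF2R and 4.05 CPM per kb for IGFBP3. The lead of the IGFBP2 mean over that of IGF2R was then much smaller, and IGF2R was the higher in DMSO replicates 2 and 3. In SAL the mean of IGFBP2 became 10.95 CPM per kb, which placed IGF1R second by the means.

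**Figure D4:**
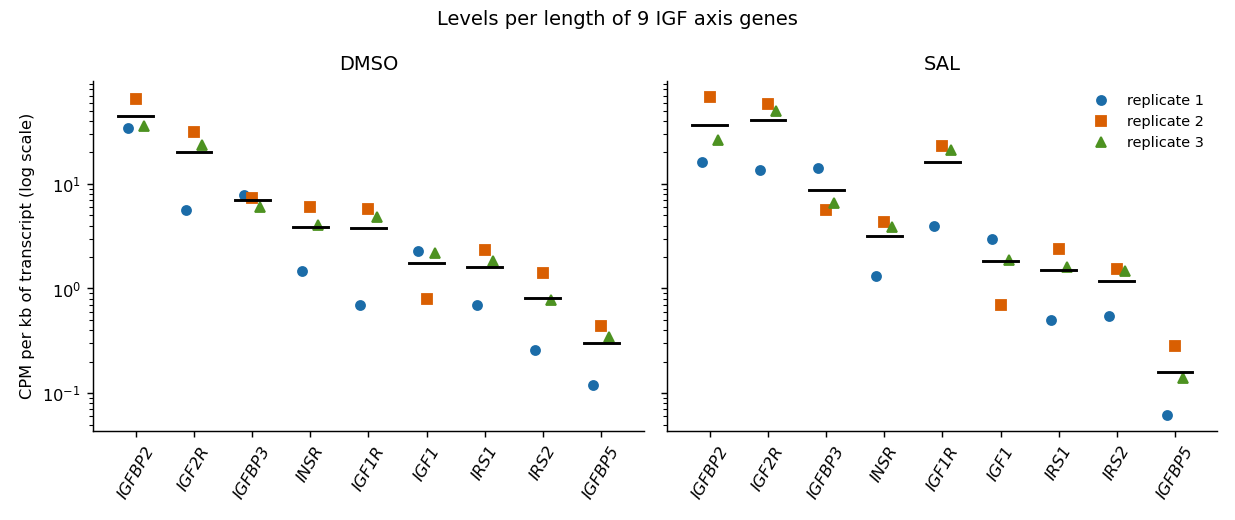
CPM per kb of canonical transcript (log axis) of the 9 IGF axis genes other than IGFBP4, in DMSO and SAL, ordered by the DMSO mean; symbols are libraries and bars group means. IGF1R moves from 3.76 to 16.0 CPM per kb and IGF2R from 20.2 to 40.7, while INSR is at 3.85 and 3.17.

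The genes whose pattern over the 6 libraries was most like that of IGF1R were SRGAP1, MAP7 and RAB3B. Their Pearson correlations of log2 CPM with IGF1R were 0.998, 0.998 and 0.997, the highest among 10302 genes with a mean of at least 10 CPM. The points share the differences between replicate numbers, so this is a description. SRGAP1, MAP7 and RAB3B were themselves higher in SAL by 0.64, 0.82 and 1.68 on the log2 scale (adjusted p = 0.000525, adjusted p = 2.27e-05 and adjusted p = 5.46e-09 by paired edgeR).

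Around these genes, 58 further genes of the pathway were listed by role. Of these, 47 were tested, of which 10 were higher and 7 were lower in SAL and 30 passed in neither direction. That is 21.3% higher and 14.9% lower, beside 11.5% and 9.37% of all genes tested. The lists were chosen with earlier results of these data known, so these shares are descriptions and no test of the pathway. The 10 higher genes include KLK3, the known androgen-induced gene, and KLK2. The median log2 fold change of the 47 tested genes was 0.06, and that of all genes was -0.0011. With DESeq2 and the pairing, 5 were higher and 6 lower, beside 7.62% and 4.75% of the 17720 genes to which DESeq2 gave an adjusted p.

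The other ligands and carriers had few or no counts. IGF2 had 0 counts in DMSO and 1 or 2 counts in each SAL library, and INS was at 0 in all 6. IGFBP1, IGFBP6, IGFBP7 and the acid-labile subunit gene IGFALS had at most 11 counts in any library, and none of these 6 genes was tested. Of the exon bases of IGF2, 4877 of 7146 are shared with other genes, INS-IGF2 on the same strand among them, and of those of INS, 246 of 656. Reads on shared exons can go uncounted as ambiguous, so low counts of IGF2 and INS need not mean low expression.

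Among genes that act on the binding proteins, 2 of the 7 tested rose and 2 fell. That is 28.6% in each direction, beside 11.5% higher and 9.37% lower of all genes tested. KLK3 and KLK2, which encode secreted kallikrein proteases that can cleave IGFBPs, rose by 1.21 and 0.77 on the log2 scale (adjusted p = 3.33e-07 and adjusted p = 5.79e-05 by paired edgeR). They are close paralogs, so reads shared between them are uncertain. The stanniocalcins STC1 and STC2, which inhibit the IGFBP protease PAPPA, both fell. STC1 had 38, 46 and 91 counts in DMSO and 4, 20 and 20 in SAL, with no overlap between the groups, as for 3.73% of all genes in this direction. Its log2 fold change was -2.15 (SE 0.30, adjusted p = 9.20e-05 by paired edgeR). STC2 went from 59.5, 169.7 and 157 CPM to 29.3, 126 and 76.5 CPM, a log2 fold change of -0.81 (adjusted p = 0.000273 by paired edgeR). PAPPA itself, with 12 to 41 counts per library, stood at -0.78 on the log2 scale and did not pass (adjusted p = 0.121 by paired edgeR). Its pairs gave 0.11, -1.12 and -1.14. Without replicate 1 it was at -1.23 and was called lower (adjusted p = 0.00990).

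Of the negative regulators of the receptors, 2 rose and 2 fell among 8 tested. That is 25.0% in each direction, beside 11.5% higher and 9.37% lower of all genes tested. SOCS2, a suppressor of cytokine signalling that restrains the growth hormone receptor and can bind IGF1R, had 46, 53 and 57 counts in DMSO and 356, 426 and 313 in SAL. The levels were 5.70, 7.25 and 7.62 CPM against 45.6, 46.7 and 38.6 CPM, far apart and with little spread, and the groups did not overlap, as for 3.78% of all genes in this direction. Its log2 fold change of 2.67 (SE 0.16, adjusted p = 9.14e-09 by paired edgeR) was the largest in the pathway lists. GRB10, an adaptor that binds IGF1R and INSR and damps their signal, went from 175.8, 704 and 483 CPM to 93.7, 278 and 201 CPM. That is a log2 fold change of -1.17 (SE 0.10, adjusted p = 7.96e-07 by paired edgeR), lower in each pair. ENPP1, an inhibitor of INSR, fell by 0.55 on the log2 scale (adjusted p = 0.00318). Its groups did not overlap, as for 3.73% of all genes in this direction. The tyrosine phosphatase gene PTPN1 rose by 0.39 (adjusted p = 0.0356), a call that was lost with DESeq2 and whichever replicate was left out (0.27 to 0.50, adjusted p = 0.0875 to 0.129). ENPP1 lost its call without replicate 3, where the value was again -0.55 (adjusted p = 0.0937).

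In the PI3-kinase and AKT arm, 1 of 9 genes rose and 2 fell. These are 11.1% and 22.2%, beside 11.5% higher and 9.37% lower of all genes tested. The regulatory subunit genes PIK3R1 and PIK3R3 fell by 0.73 and 0.37 on the log2 scale (adjusted p = 4.99e-05 and adjusted p = 0.0136 by paired edgeR). PDPK1, the kinase that phosphorylates AKT, rose by 0.34 (adjusted p = 0.0410). AKT1 and AKT2 stood at 0.20 and 0.02 on that scale (adjusted p = 0.181 and adjusted p = 0.935). Among 9 adaptors, 11.1% were called in each direction, near the shares of all genes. SHC1, which links the receptors to the RAS route, rose by 0.40 and the RAS exchange factor gene SOS2 fell by 0.35 (adjusted p = 0.00987 and adjusted p = 0.0360). FOXO3, a transcription factor that AKT keeps out of the nucleus, rose by 0.70 (adjusted p = 0.000460), the only call among 3 FOXO genes. PDPK1 was not called whichever replicate was left out, at 0.24 to 0.48 on the log2 scale (adjusted p = 0.103 to 0.155). Without replicate 2, PIK3R3 at -0.28 and SOS2 at -0.24 were not called (adjusted p = 0.0685 and adjusted p = 0.170). Without replicate 3, PIK3R3 at -0.43, SHC1 at 0.37 and SOS2 at -0.37 were not called, with values close to those of all 3 pairs (adjusted p = 0.171, adjusted p = 0.233 and adjusted p = 0.265).

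In the remaining lists, each call was an increase. For mannose 6-phosphate sorting, the route that IGF2R serves, 1 of 7 genes rose (14.3%), beside 11.5% of all genes tested. The gene was GNPTG, a subunit of the enzyme that makes the tag (log2 fold change 0.59, adjusted p = 0.0261 by paired edgeR). M6PR, the other receptor for the tag, changed by -0.27 on the log2 scale, not past the threshold (adjusted p = 0.0561). The insulin-degrading enzyme gene IDE rose by 0.30 (adjusted p = 0.0315), and IGF2BP3, which binds IGF2 mRNA, by 0.35 (adjusted p = 0.0403). The calls of GNPTG, IDE, IGF2BP3, PDPK1 and SOS2 were lost with DESeq2. GNPTG was not called without replicate 2, at 0.46, or without replicate 3, at 0.52 on the log2 scale (adjusted p = 0.186 and adjusted p = 0.233). IDE was not called without replicate 3, at 0.28 (adjusted p = 0.412). The call of IGF2BP3 was lost whichever replicate was left out, at 0.30 to 0.39 (adjusted p = 0.0538 to 0.397). Exons of GNPTG, PDPK1 and IGF2BP3 overlap genes on the opposite strand in the newer annotation. Those of the called genes SHC1, PIK3R3, SOCS2, PTPN1 and ENPP1 overlap other genes over 94 to 1292 bases. Reads on shared exons can go uncounted as ambiguous, or be counted together where the annotation of the counts lacks the other gene.

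**Figure D5:**
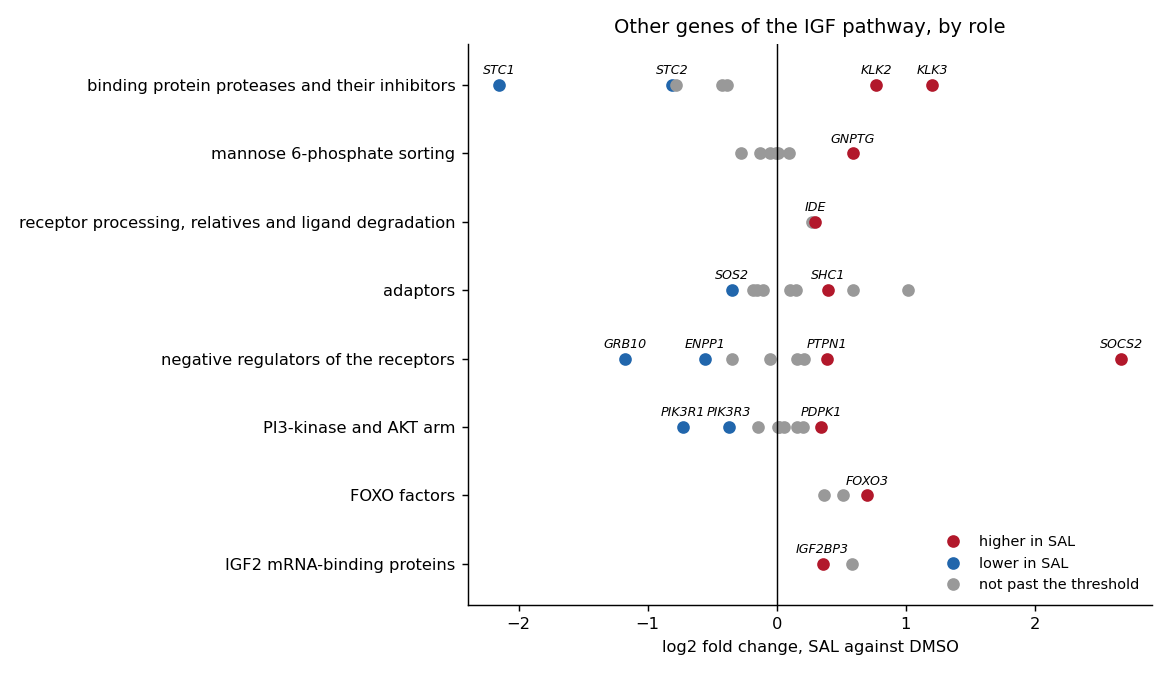
Fitted log2 fold change of SAL against DMSO for the 47 tested genes of the other IGF pathway lists, 1 row per role; red points are higher and blue points lower at an adjusted p under 0.05, and grey points did not pass. SOCS2 at 2.67 and STC1 at -2.15 are the outermost points, and the lists of negative regulators and of binding protein proteases hold calls in both directions.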

How the data were processed

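RNA-seq was analysed for 6 C4-2 libraries, 3 DMSO and 3 SAL. After trimming, the authors aligned read 1 of every pair against hg19 (TopHat2 2.1.0) and summed exon reads per gene with HTSeq 0.11.2, gencode v19 and no strand setting. They deposited the raw counts without normalization.

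From the counts, 523 rRNA symbols were removed, as in the paper's methods. The filter filterByExpr left 16835 of 55765 symbols. SAL was compared with DMSO by edgeR 4.0.16 (TMM, quasi-likelihood test, robust) with the replicate number as a block, in R 4.3.3, since the methods name a paired test. The numbers pair the libraries: deviations from the group means correlated at 0.89, 0.86 and 0.74 within pairs. P-values were adjusted over all genes tested. The standard error was taken as the size of the log2 fold change over the root of F, and changes per pair use log2 CPM with a prior count of 2. Data simulated for this comparison had 16835 genes, with 196 changed genes among those tested. Of the changes, 70.4% of 2-fold and 99.0% of 4-fold ones were called. Unchanged genes made up 13.1% of the calls, more than the threshold of 0.05 aims at. The real fit called 1931 genes higher and 1577 lower, a far larger share, so these rates need not hold for it.

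The members and gene lists were chosen with earlier results of these data known. The text names all 10 members, each called gene of a pathway list (at most 4 per direction), KLK3 and the 3 genes most like the called member with the smallest p. PAPPA, AKT1, AKT2, M6PR and the untested ligands and carriers were named after their values were seen. Gene positions are those of GRCh37 with GENCODE v44, newer than the annotation of the counts. Promoters are from RefSeq, in GRCh38.p14, where all 10 genes matched and some have several starts. The alternatives were DESeq2 1.42.0, its size factors, the fit without the block, all genes unfiltered, a minimum of 10 counts in each library, rRNA kept, no robust estimation and each replicate left out. Lengths by merged exons were tried only once the data were known. With 6 libraries, precision is limited throughout. One marker gene of the luminal list is not reported here.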

Additional observations from a re-analysis of the deposited data

How the results depend on the processing

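The calls of IGF1R and IGF2R held in 9 of 10 alternative settings each and were lost without the replicate block. In that unpaired fit of edgeR, 0 of the 10 genes were called higher (1 at an unadjusted p under 0.05) and 0 lower, 0 further pathway genes were called higher (2 at that p) and 0 lower (1 at that p), and over all genes 18 were higher and 3 lower, against 1931 and 1577 with the block. With DESeq2 and the block, 1350 genes were higher and 842 lower, and of the further pathway genes 5 were higher and 6 lower, against 10 and 7. Without the filter, IGFBP2 made 1 gene of the 10 lower. Leaving out 1 replicate number gave 750 to 2443 genes higher and 483 to 1955 lower over all genes, the lowest without replicate 3. For the 10 genes it gave 2 to 3 higher and 0 to 1 lower, and for the further pathway genes 4 to 7 higher and 4 to 9 lower. Without replicate 1, IGF1 turned to -0.21 (up to 0.16 without another replicate) and IGFBP3 to -0.13 (up to 0.51), neither called. The cause of these shifts was not tested. IGFBP5 had no value with at least 10 counts in every library or without replicate 2. Of 88 alternative values of single genes of the 10, 80 kept their direction and side of the threshold. Counts of 3 to 20 per library limit IGFBP5, and those of IGFBP4 allow no test.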
